A study of Mus musculus with 13 samples.

Results

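In 2 sections of mouse brain, the spots richest in the summed transcripts of Trh, Dlk1, Calb2, Dcn and Gpr101 were described and set against the other spots of the same sections. Spots with a total of at least 2000 counts were ranked within each section by the summed scaled counts (CPM, a gene's share of all counts of the spot, times 1000000) of these 5 genes, and the 100 highest of each section were taken. They are called members here. The members were 200 of 1973 spots in all: 100 of the 1017 eligible spots of one section and 100 of the 946 eligible spots of the other. The 5 selecting genes define the members, so their levels are given as a description only.

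The sections were cut at 10 µm from flash-frozen brains of wild-type mice, stained for NeuN and DAPI and profiled on Visium slides. Each Visium spot reads RNA from a patch of tissue in which several cells, of 1 type or more, can lie, so a spot's level is not a cell's level. The spot names mark 2 libraries by a suffix, S4 and S8 below, and these were not matched to the numbered labels. The labels give no treatment, age or sex for the sections and do not say whether they came from separate animals. The p-values below therefore speak for these 2 sections only, and not for animals. Those of edgeR weigh differences within the sections against counting error and a spread that the fits set common to all genes. The same series holds dissociated neurons of the retrosplenial cortex from wild-type B6 mice, pooled across acute slices, which serve below as a second readout.

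As background, Trh encodes the precursor of thyrotropin-releasing hormone, a short peptide released by hypothalamic neurons to drive the pituitary and thyroid, and also made in parts of the forebrain. Dlk1 is an imprinted, membrane-bound relative of the Notch ligands, Calb2 encodes the calcium-binding protein calretinin, Dcn the extracellular proteoglycan decorin, and Gpr101 a receptor that couples to the stimulatory G protein. Calretinin marks a class of cortical interneurons, and decorin is made by meningeal and perivascular fibroblasts as well as by some neurons.

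The selecting genes were sparse. No count of any of them was present in 69.7% of the eligible spots of S4 and 74.2% of those of S8. The summed CPM of the members ran from 266 to 2330 in S4 with a median of 584, and from 279 to 2045 in S8 with a median of 478. At the border of the choice, the last spot inside and the first outside had 266.1 and 264.6 CPM in S4 and 278.7 and 278.5 CPM in S8. The median member held 4 counts of the selecting genes in S4 and 3 in S8, and 26 and 39 members rested on 1 or 2 counts. The choice of single spots near the border therefore followed single counts: after every spot was thinned to 2000 counts, 62 of the 100 members of S4 and 62 of S8 were chosen again.

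No selecting gene was counted in every member. In S4, Dcn was counted in 68 members, Calb2 in 67, Dlk1 in 47, Trh in 28 and Gpr101 in 24. In S8, Calb2 was counted in 70 members, Dcn in 43, Dlk1 in 34, Trh in 30 and Gpr101 in 28. Trh and Dlk1 were present together in 12 members of S4 and 6 of S8. At least 3 of the 5 genes were counted in 43 and 30 members and in 0 other spots, where the rule itself leaves little room for them. The CPM of the summed counts of members and of other spots were 84.2 against 2.08 for Trh in S4 and 79.9 against 1.92 in S8. For Calb2 they were 261 against 13.1 and 264 against 11.2.

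The library totals were 8436518 counts in S4 and 6389042 in S8. The median total of a member was 7401 counts against 8359 in the other spots of S4, and 6585 against 6732 in S8. The general neuron list (Slc17a7, Slc17a6, Gad1, Gad2, Slc32a1, Snap25 and Syt1) had 0 of its 7 tested genes called between members and other spots by edgeR, with 3 lower at an unadjusted p under 0.05 and 0 called by DESeq2. Slc17a7, the vesicular glutamate transporter of cortical excitatory neurons, had 723 CPM in members and 764 in other spots of S4, and 858 and 813 in S8. The summed level of the list was lower in members, with 3614 CPM against 4967 in S4 and 3801 against 4864 in S8. The libraries shared 162 spot barcodes, which name positions on a slide and not cells.

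Of 12143 genes tested with edgeR on counts summed per section, 196 were higher in members (1.61%) and 223 were lower (1.84%), called where the p adjusted by Benjamini-Hochberg was under 0.05 and the log2 fold change was 1 or more in size. Among the genes higher in members were the imprinted gene Nnat, the transcription factor gene Nr2f2, the myosin gene Myh7, and genes for the serotonin receptor Htr2c, the NMDA receptor subunit Grin3a and the calcium sensors Hpcal1 and Necab2. Among the lower were the cortical transcription factor genes Cux2 and Tbr1, the immediate early genes Arc and Egr1, the myelin genes Mbp and Mobp, and the sodium channel subunit gene Scn4b. The 4 sums leave 1 residual degree of freedom, and the fit set the spread to be common to all genes, with a coefficient of variation of 0.0688 beyond counting. Very small p-values rest on that sharing. DESeq2 called 68 higher and 50 lower, of which 66 and 50 were among the edgeR calls.

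Nnat encodes neuronatin, a small protein of the endoplasmic reticulum whose gene is expressed from the paternal allele. Its level was 1031 CPM in members and 152 in other spots of S4, and 898 and 163 in S8. Both sums of members lay far above both sums of other spots, a difference of 2.58 on the log2 scale (SE 0.11; edgeR, adjusted p = 1.3e-108). By spot, Nnat had a median of 758 CPM in the members of S4, with quartiles of 346 and 1352, and a median of 515 in S8, with quartiles of 289 and 1202. Counts of Nnat were present in 90 of 100 members of S4 and 89 of S8, against 48.5% and 48.2% of other spots. The ranges of single spots overlapped, since members without a count existed in both sections and the highest other spots reached 1807 and 2413 CPM.

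Nr2f2 encodes COUP-TFII, a nuclear receptor that patterns the developing brain. Its level was 200.6 CPM in members and 35.8 in other spots of S4, and 190 and 37.6 in S8, a difference of 2.38 on the log2 scale (SE 0.14; edgeR, adjusted p = 2.5e-63). A count was present in 71 and 63 of the 100 members and in 23.4% and 18.4% of other spots. Its near relative Nr2f1 (COUP-TFI) was not called, with 171 against 158 CPM in S4 and 179 against 148 in S8 (0.16 on the log2 scale, SE 0.12, and an edgeR adjusted p of 0.54). The difference between the 2 genes was not tested.

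Myh7 encodes a myosin heavy chain best known from slow muscle. Its level was 97.6 CPM in members and 21.3 in other spots of S4, and 118 and 26.2 in S8, a log2 fold change of 2.14 (SE 0.17). Cpne7 encodes a copine, a calcium-dependent membrane-binding protein. It stood at 261 CPM in members and 63.9 in other spots of S4, and at 179 and 39.8 in S8, a log2 fold change of 2.05 (SE 0.13). For both genes the sections kept the same order, with each sum of members above each sum of other spots.

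Genes for receptors and synaptic proteins were among the 20 named as higher. Htr2c had 85.6 CPM in members and 28.6 in other spots of S4, and 100.98 and 30.6 in S8. Grin3a, a subunit that lowers the calcium permeability of NMDA receptors, had 82.9 against 24.1 and 81.4 against 26.2. Lypd1, which encodes a modulator of nicotinic receptors, had 195 against 69.4 and 277 against 106. The remaining genes of this kind were C1ql3, a secreted synapse organizer (log2 fold change 1.36), Acvr2a, an activin receptor (1.29), and Ptpro, a receptor tyrosine phosphatase (1.79). C1ql3 lost its call without the section block, with an adjusted p of 0.11.

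Calcium-binding and trafficking genes made up a second set. Hpcal1, a neuronal calcium sensor, had 175 CPM in members and 58.7 in other spots of S4, and 252 and 63.6 in S8. Necab2, an EF-hand protein of neurons, had 128 against 37.7 and 143 against 48.1. Hap1, which encodes a huntingtin-associated trafficking protein abundant in the hypothalamus, had 195 against 60.6 and 231 against 77.6. Ap1s2, a clathrin adaptor subunit, had a log2 fold change of 1.35. With 200 members per section its change was 0.96, under the size a call required.

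The other named genes act in adhesion, signalling or transcription. The protocadherin gene Pcdh8 differed by a log2 fold change of 1.53, the ephrin gene Efnb3 by 1.28, the transcription factor gene Bhlhe22 by 1.28 and the matricellular gene Ccn3 by 1.28. Kctd4 and Sertm1, whose roles are less well known, differed by 1.70 and 1.58. All 20 named genes were past 2-fold in S4 and in S8 taken alone. They were named for the largest changes over these same sections, which leaves little room for less. Of the 196 genes called higher, also from these sections, 170 were past 2-fold in S4 and 181 in S8. Of the 20, 17 were called under each of 20 alternative settings. The exceptions were Ap1s2, C1ql3 and Efnb3, with 1 setting each. Efnb3 had a change of 0.99 when members were chosen after thinning.

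**Figure D1:**
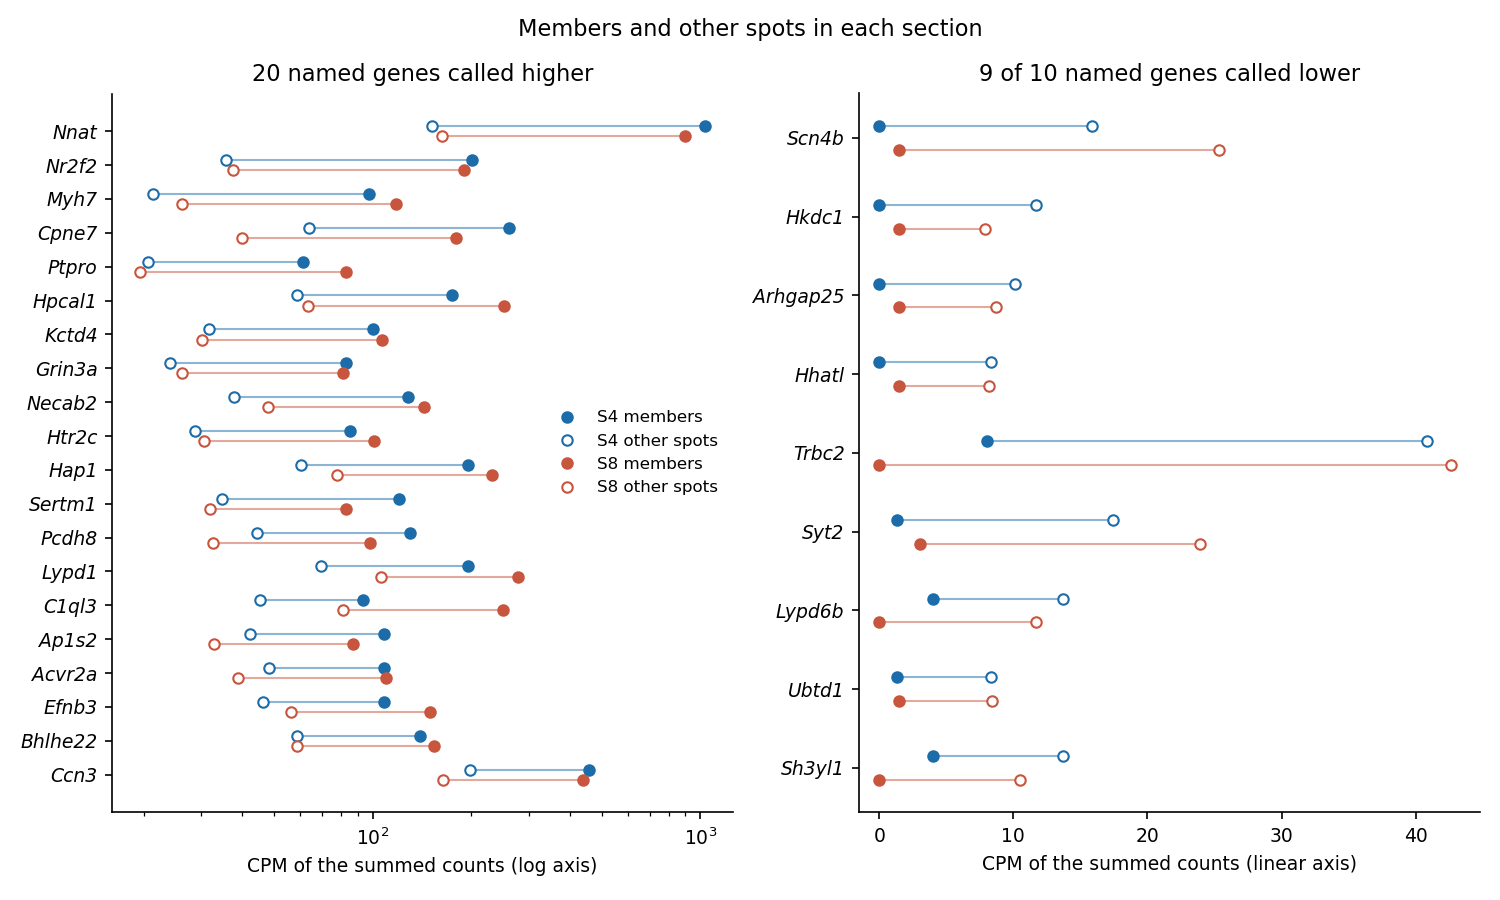
CPM of the summed counts (horizontal axes, log scale on the left and linear on the right) for the 20 named genes called higher and 9 of the 10 called lower. Filled points are members and open points other spots, in blue for S4 and red for S8. For Nnat the members stand at 1031 and 898 CPM and the other spots at 152 and 163, while Scn4b is at 0 and 1.51 CPM in members.

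Genes of the TRH and thyroid hormone pathway were among those that differed. Of 10 list genes tested, 3 were higher in members and 1 was lower, with a median log2 fold change of 0.03, beside 0.00 over all genes tested. Trhr, the receptor for the peptide, had 21.4 CPM in members and 5.34 in other spots of S4, and 31.6 and 6.82 in S8 (log2 fold change 2.07, SE 0.36, edgeR adjusted p = 5.8e-07). Dio3, the deiodinase that inactivates thyroid hormone, had 28.1 CPM against 1.43 and 22.6 against 2.10 (log2 fold change 3.83, SE 0.44). Crym, a cytosolic thyroid hormone-binding protein, had 365 against 147 and 259 against 124 (1.17, SE 0.12).

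The lower gene of the pathway was Trhde, which encodes the ectoenzyme that degrades the peptide. It had 5.35 CPM in members and 21.3 in other spots of S4, and 4.52 and 20.8 in S8 (log2 fold change -2.11, SE 0.45, edgeR adjusted p = 0.00012). In members its 7 counts gave 0.235 times the level of other spots (95% exact interval 0.0936 to 0.49, counting error only). DESeq2 did not call Trhde, while it called Trhr, Dio3 and Crym. Thra, the thyroid hormone receptor gene alpha, was 722 against 415 CPM and 817 against 522, a log2 fold change of 0.69 that was under the size a call required. Dio2, the activating deiodinase, was 24.1 against 29.5 and 33.2 against 40.4 and was not called (-0.32, SE 0.25). Trhr2 had 0 counts in members and 2 in other spots.

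Calcium-binding proteins, the family of calretinin, were split. Of 18 list genes, 4 were higher in members (Calb1, Hpcal1, Necab2 and Rcn1) and 3 were lower (Pvalb, Necab3 and Cabp1), with a median log2 fold change of -0.14. Calb1 (calbindin) had 368 CPM in members and 195 in other spots of S4, and 329 and 145 in S8 (log2 fold change 1.01, SE 0.11). That value is just past the size required, and it lost the call in 7 of 20 settings. Pvalb (parvalbumin), a marker of fast-spiking interneurons, had 57.5 against 185 and 43.7 against 129 (-1.67, SE 0.16). Rcn1, a calcium-binding protein of the endoplasmic reticulum, had 48.1 against 15.4 and 52.7 against 16.95 (1.61, SE 0.24). It was highest in the members in which Trh led the selecting genes, as given below.

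Among the imprinted genes, the class to which Dlk1 belongs, 2 of 19 were called higher (Nnat and Magel2) and 0 lower, with a median log2 fold change of 0.58. At an unadjusted p under 0.05 (edgeR), 11 of the 19 were higher and 1 was lower. Magel2 rested on 9 counts in members, with 8.02 CPM against 1.43 in S4 and 4.52 against 0.87 in S8, and DESeq2 did not call it. Meg3, a noncoding RNA of the imprinted cluster that also holds Dlk1, had 2186 CPM in members and 1325 in other spots of S4, and 2805 and 1668 in S8. Its log2 fold change of 0.70 (SE 0.11) was under the size a call required. Rian, of the same cluster, had 135 against 142 and 172 against 123 (0.17, SE 0.13). Dio3, given above with the thyroid hormone genes, lies at the other end of that cluster and was called higher.

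For the Notch list, 0 of 12 genes were called by edgeR or DESeq2, with 2 higher and 1 lower at an unadjusted p under 0.05. For stimulatory G protein and cAMP genes, the pathway of Gpr101, 0 of 17 were called by either tool, with 5 higher and 3 lower at an unadjusted p under 0.05. Of 3 tested genes of the small leucine-rich proteoglycans, the family of decorin, Bgn was higher on 15 counts in members. It lost its call in 11 of 20 settings. Among these were DESeq2, the choice of members without Dcn, and leaving out members high in meningeal genes. Of 13 collagen genes, 4 were higher (Col3a1, Col6a1, Col23a1 and Col25a1) and 0 lower, with a median log2 fold change of 1.15. Col25a1, a membrane collagen of neurons, had 44.1 CPM in members and 14.8 in other spots of S4, and 36.2 and 11.9 in S8 (1.55, SE 0.26), and was the collagen that DESeq2 also called.

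Meningeal markers were measured because Dcn is also a fibroblast gene. Of 10 meningeal genes tested, 2 were higher (Col3a1 and Mgp) and 0 lower, with a median log2 fold change of 0.89. At an unadjusted p under 0.05 (edgeR), 5 were higher and 0 lower, and DESeq2 called 0. The summed level of the 14 list genes was 797 CPM in members and 551 in other spots of S4, but 460 and 559 in S8, so the sum differed in direction between the sections. Ptgds supplied most of the sum in other spots, with 483 CPM in S4 and 492 in S8. Mgp had 66.9 against 18.2 CPM in S4 and 24.1 against 25.9 in S8, so its call rested on S4. The mural cell gene Acta2 (log2 fold change 1.40, SE 0.48) had a change of -0.26 once the 15 and 6 members that were also among the 100 spots highest in the meningeal list were left out. All 20 named higher genes kept their calls without those members.

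Spots of other tissue areas were looked for by marker lists. Of the 9 tested genes of the list for hypothalamus, septum and extended amygdala, 6 were higher in members (Nnat, Ecel1, Magel2, Baiap3, Hap1 and Zcchc12) and 0 lower, with a median log2 fold change of 1.59. Its summed level was 1689 CPM in members and 437 in other spots of S4, and 1533 and 450 in S8. Nnat supplied most of that sum: without it the list had 658 against 285 CPM in S4 and 635 against 288 in S8. Of the list's peptide and transcription factor genes, Oxt, Avp, Pmch, Sim1 and Otp had 0 counts in the members of both sections. That allows up to 2.13 CPM each over all members (a floor of 3 counts). Values of Cartpt, Pomc and Trp73, which are also on the list, are not reported here. Hcrt, Agrp and Gal had 1 count each. In other spots these peptide genes were also near 0, with 19 counts of Avp and 5 of Oxt. The genes that differed are also expressed outside those areas, and the members are called here by their selecting genes, not by an area.

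Ecel1, a neuronal membrane endopeptidase, had 20.1 CPM in members and 3.12 in other spots of S4, and 55.8 and 5.94 in S8 (log2 fold change 2.98, SE 0.34). Zcchc12, a zinc finger coactivator gene, had 86.9 against 40.6 and 102.5 against 35.5 (1.27, SE 0.17). Ranked by the summed level of the whole list, the 100 highest spots included 60 of the members of S4 and 53 of S8, where members were 9.83% and 10.6% of eligible spots. With Nnat left out of the list, a choice made after its values were seen, they included 40 and 39. The count for other lists was 33 and 21 for the layer 5 extratelencephalic list, 25 and 28 for the dentate gyrus list, 4 and 5 for the retrosplenial list and 3 and 3 for the oligodendrocyte list.

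Hippocampal markers gave a mixed picture. Of 4 CA1 genes, Fibcd1 and Spink8 were higher and Pou3f1 was lower. Spink8, a protease inhibitor gene, had 28.1 CPM in members and 9.50 in other spots of S4, and 40.7 and 5.77 in S8 (log2 fold change 2.10, SE 0.32). Wfs1, a common CA1 marker, was not called, with 53.5 against 60.6 and 81.4 against 51.03. Of 5 genes for CA2 and CA3, Cpne7 alone was called. For the dentate gyrus, Calb1 was called higher of 3 tested, with a median log2 fold change of 0.82. At an unadjusted p under 0.05 (edgeR), 2 of the 3 were higher and 0 lower. The granule cell factor Prox1 had 4.01 CPM against 4.95 and 3.01 against 6.64, on few counts in members. For the thalamus list 0 of 6 genes were called by either tool, with 1 higher and 1 lower at an unadjusted p under 0.05.

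Of 29 patterning transcription factor genes, 7 were lower (among them Tbr1, Cux2, Pou3f2, Foxp2, Tshz2 and Tshz3) and 2 were higher (Nr2f2 and Lmo3). Foxp2 rested on 5 counts in members and lost its call in 10 of 20 settings, and Pou3f2 and Tshz3 lost theirs in 4 settings each, DESeq2 among them for all 3 genes. Cux2, a marker of upper layers, had 5.35 against 39.95 and 19.6 against 50.7 (-1.94, SE 0.30). Tbr1, a factor of early-born cortical neurons, had 74.9 against 158 and 40.7 against 125 (-1.32, SE 0.16). Tshz2, a marker of the retrosplenial cortex, had 10.7 against 52.6 and 22.6 against 58.2 (-1.79, SE 0.26). In these genes every sum of members lay below every sum of other spots.

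The layer lists did not move as blocks. In the layer 2/3 list, Cux2 and Lamp5 were lower while Calb1 and Otof were higher, of 6 tested. In the layer 4 list, Scnn1a and Rspo1 were lower of 4. Scnn1a had 0 counts in members and 51 in other spots, at least 1.79-fold lower when 3 counts over all members are taken as the floor. In the layer 5 extratelencephalic list, Crym was higher and Pou3f1 lower of 6, and the defining factor Fezf2 (40.1 against 34.5 CPM in S4, 43.7 against 43.3 in S8) was not called. Bcl11b, another factor of these neurons, had 123 against 57.5 and 116 against 60.6, a log2 difference of 0.99 (SE 0.15) just under the size a call required. In the layer 6b list, Moxd1 was higher and Nxph3 and Cplx3 were lower of 4. Otof lost its call in 8 of 20 settings, Cplx3 in 7, Rspo1 in 5, Moxd1 and Pou3f1 in 4 each and Nxph3 in 3. DESeq2 was among these settings for each of these genes. It called 0 genes of the layer 4 list and 0 of the layer 6b list. Car12, a carbonic anhydrase of the layer 6 intratelencephalic list, had 38.8 CPM against 6.25 and 43.7 against 5.42 (log2 fold change 2.77, SE 0.31).

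Interneuron genes other than Pvalb were mostly close. Of 12, Lhx6 was called higher on 26 counts in members (edgeR adjusted p = 0.038, lost in 14 of 20 settings), and Pvalb and Lamp5 lower. Vip, which marks a class that overlaps calretinin interneurons, had 41.5 CPM in members and 78.6 in other spots of S4, and 76.9 and 55.2 in S8, in opposite directions, and was not called. Sst had 548 against 331 and 527 against 402 (log2 fold change 0.53), under the size a call required. Of 16 neuropeptide genes tested, 0 were higher and Pdyn, the prodynorphin gene, was lower on 9 counts in members. Pdyn lost its call in 5 of 20 settings, among them DESeq2, which called 0 genes of the list.

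Immediate early genes are induced quickly by neuronal activity. Of 9 tested, 5 were called lower by both edgeR and DESeq2 (Arc, Ier2, Nr4a1, Egr1 and Fos), with a median log2 fold change of -1.04. Arc had 44.1 CPM in members and 160 in other spots of S4, and 87.4 and 371 in S8 (-2.04, SE 0.15, edgeR adjusted p = 1.7e-36). Egr1 had 168 against 337 and 197 against 495 (-1.20, SE 0.13). The sections themselves differed in these genes, and in each of the 5 the members lay below the other spots of their own section. Arc and Ier2 were called under each of 20 alternative settings.

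Oligodendrocyte genes were lower in members, while the sum of the blood genes differed in direction between the sections. Of 6 oligodendrocyte genes, Mbp and Mobp were lower, and all 6 were lower at an unadjusted p under 0.05. Their summed level was 1066 CPM in members and 2143 in other spots of S4, and 1495 and 2646 in S8. The 5 blood genes had a summed level of 776 CPM in members and 1459 in other spots of S4, but 3757 and 1265 in S8, with 0 called by either tool and 4 higher at an unadjusted p under 0.05. Neither the fewer myelin transcripts nor the blood transcripts were adjusted for, and their part in the other results was not tested. In spots, fewer cells of a type and less RNA per cell cannot be told apart.

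**Figure D2:**
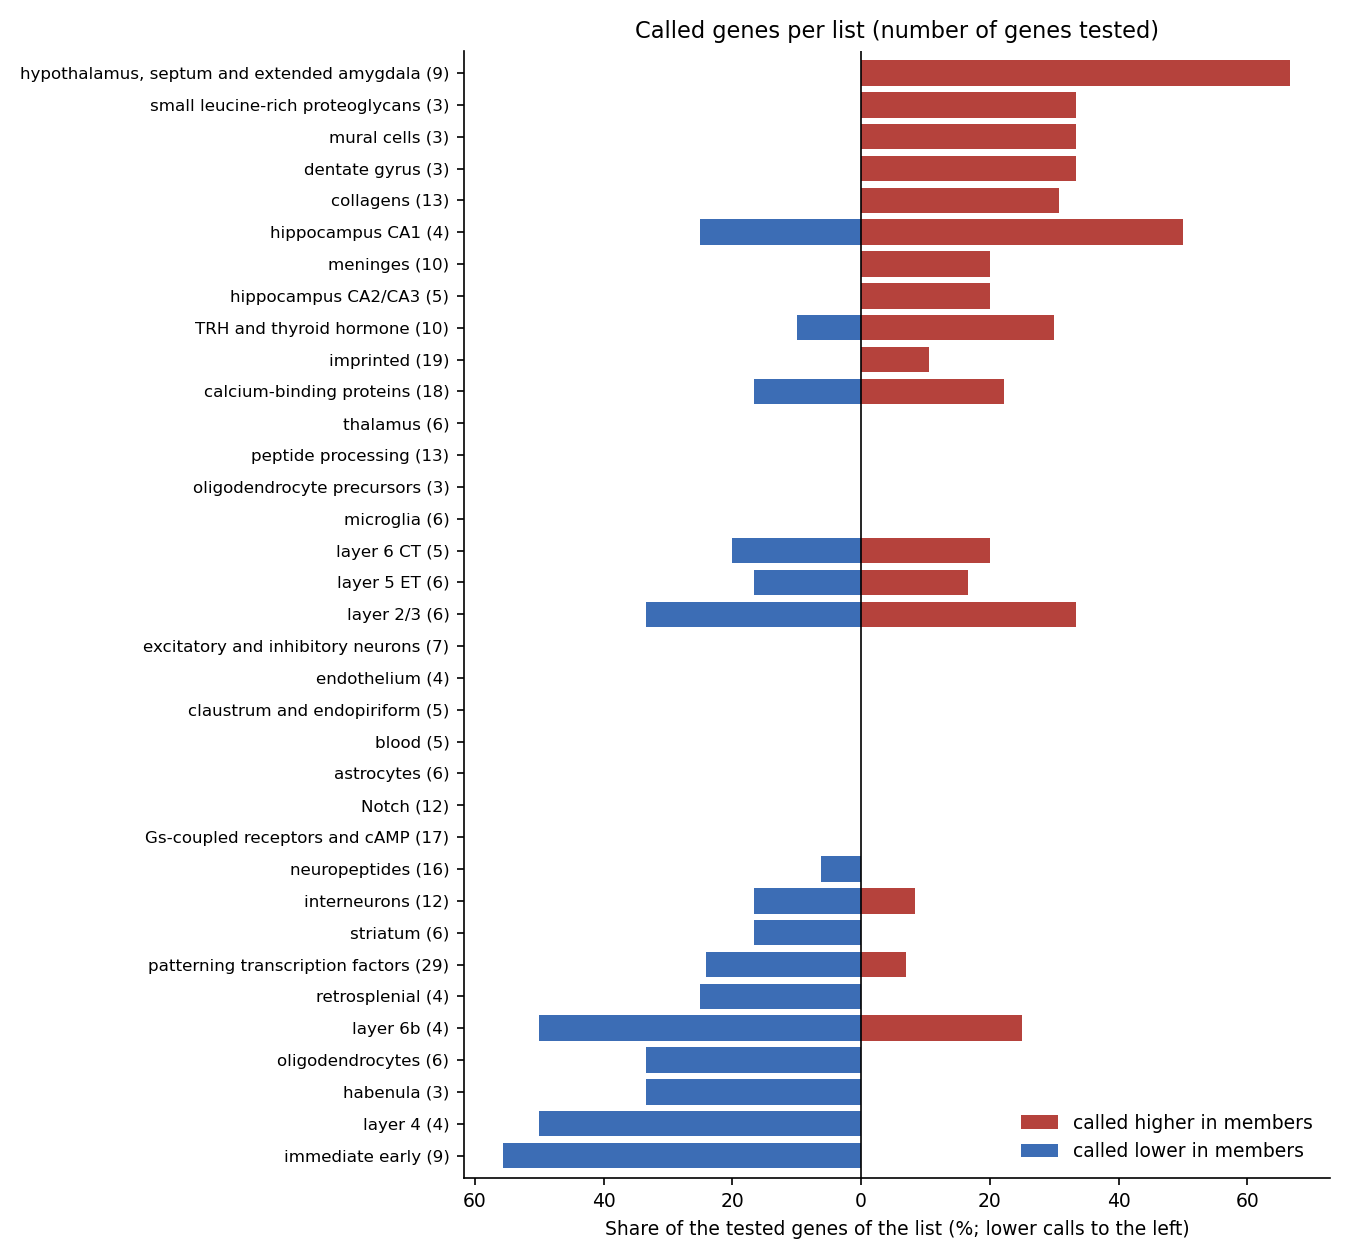
Share of the tested genes of each list that were called higher (right, red) or lower (left, blue) in members, in percent, for lists with at least 3 genes tested (number in parentheses). The list for hypothalamus, septum and extended amygdala has 6 of 9 genes to the right, and the immediate early list has 5 of 9 to the left.

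The 10 genes named as lower had few counts in members, so they are given with counting intervals. Scn4b, a sodium channel subunit of fast-firing neurons, had 0 counts in the members of S4 and 1 in S8, against 122 and 145 in other spots, a ratio of 0.0356 (95% exact interval 0.0009 to 0.2, counting error only). Syt2, a fast calcium sensor of transmitter release, had 3 counts in members and 271 in other spots, a ratio of 0.105 (0.0216 to 0.311). Trbc2, annotated as a T cell receptor constant region, had 6 and 558, a ratio of 0.102 (0.0373 to 0.224). Hkdc1, Arhgap25 and Hhatl had 1 count each in members against 135, 128 and 111, and Lypd6b, Ubtd1 and Sh3yl1 had 2 to 3 counts against 112 to 172. The rule took genes called by edgeR and lower in both sections. DESeq2 called 0 of the 10 and, with members chosen after thinning, edgeR called 1.

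Levels of most named higher genes were lower at later ranks. Nnat stood at 1601 CPM over ranks 1 to 25 of S4, 1068 over ranks 26 to 50, 739 over 51 to 75 and 630 over 76 to 100. Outside the members it was 349 over the next 100 spots and 131 in the rest. In S8 the same bands had 1198, 979, 795, 568, 329 and 143 CPM. Of the 20 named higher genes, 18 were higher over ranks 1 to 25 than over 76 to 100 in S4, and 18 in S8. All 20 were higher over the 100 spots just outside the members than in the rest, in both sections. Hap1 in S4 was an exception to a steady order, with 240 CPM over ranks 76 to 100 and 213.5 over ranks 1 to 25. C1ql3 was lower over ranks 1 to 25 than over 76 to 100 in both sections, with 67.9 and 89.9 CPM in S4. In S8 it had 234 and 252 CPM. Pcdh8 in S8 had 92.6 CPM over ranks 1 to 25 and 113.5 over 76 to 100. These are values along the rule's own ranking, given with no test. The list for hypothalamus, septum and extended amygdala, Nnat included, had 2446 CPM over ranks 1 to 25 and 409 after rank 200 in S4, and 2015 and 413 in S8.

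**Figure D3:**
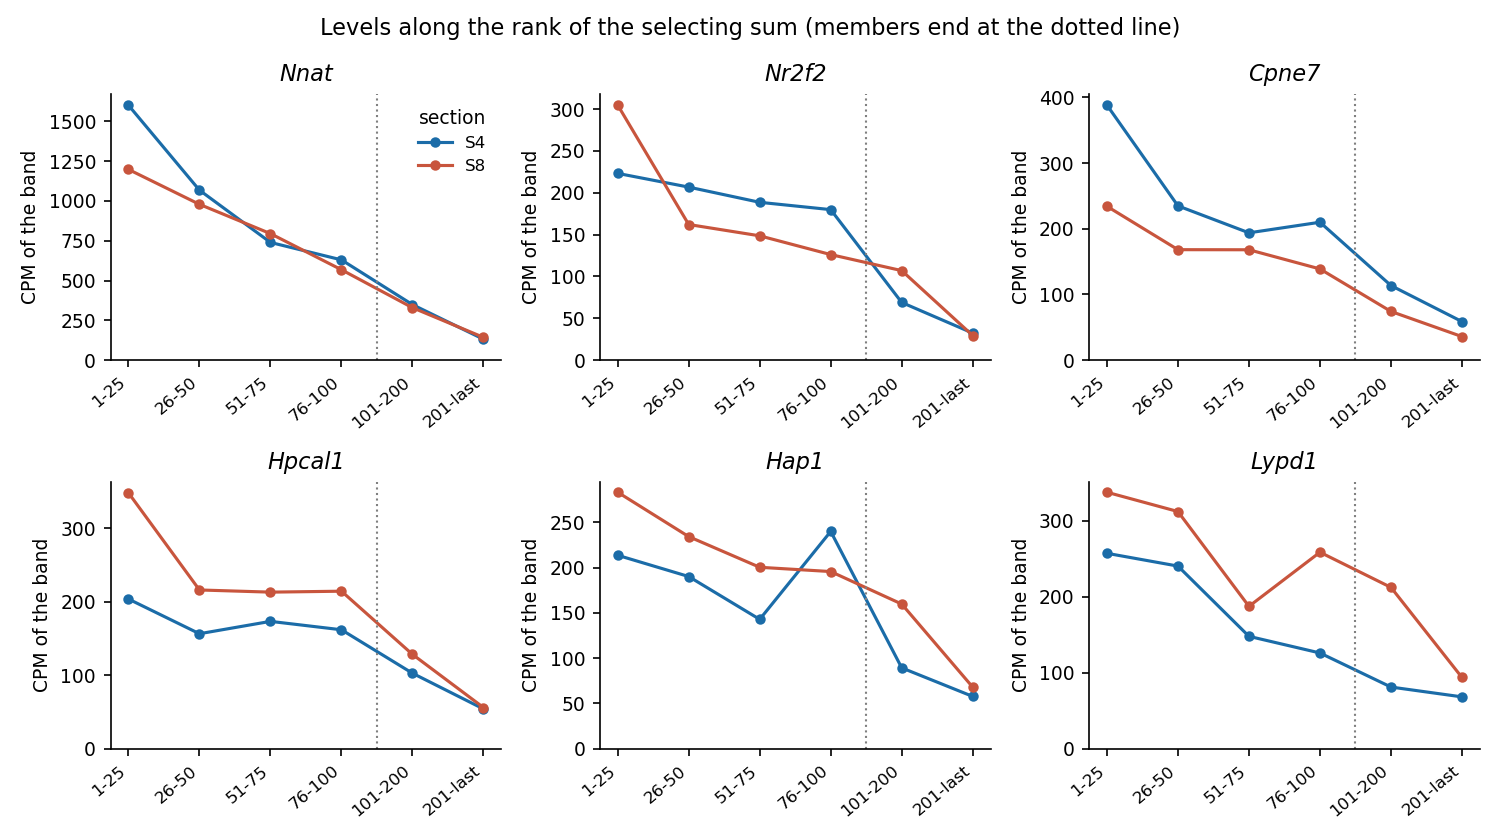
CPM (vertical axes, from 0) of Nnat, Nr2f2, Cpne7, Hpcal1, Hap1 and Lypd1 over bands of the rank by the summed CPM of the selecting genes, in S4 (blue) and S8 (red). Nnat runs from 1601 CPM in the first band to 131 in the last in S4, and from 1198 to 143 in S8, with intermediate values over the 100 spots just past the dotted line, where the members end.

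Over all eligible spots, the genes whose level followed the summed CPM of the selecting genes most closely were Nnat, Nr2f2, Hpcal1, Hap1 and Cpne7, by the mean Spearman correlation of the 2 sections among 10108 genes. Nnat had a rho of 0.43 over 1017 spots of S4 and 0.39 over 946 of S8, and Nr2f2 had 0.32 and 0.35. These are descriptions: spots of a section share a library and their totals, and most values of the selecting sum are 0.

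Each section alone gave part of the other's genes. In S4, 206 of the 10108 genes with at least 100 counts were past 2-fold higher in members (2.04%), and 95 of these (46.1%) were also past 2-fold in S8. For 186 of the 206 (90.3%) the sign was the same in S8. From the side of S8, 273 genes were past 2-fold higher (2.7%), and the shared 95 are 34.8% of them. For lower genes, 475 in S4 (4.7%) and 464 in S8 (4.59%) were past 2-fold, of which 159 were shared, 33.5% and 34.3%. With 1 sum per group in a section these counts carry no test.

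Members were also grouped by the selecting gene with the largest CPM in the spot. Calb2 led 41 members of S4 and 43 of S8, Dcn 24 and 18, Trh 17 and 25, Dlk1 14 and 11, and Gpr101 4 and 3, too few to test. The 4 larger groups were each set against the other 3 groups' mean, over 3689 genes. Trh-led members had the most calls, with 18 genes higher (0.488%) and 16 lower (0.434%), while the other groups had 0 to 5 genes in either direction. Of the 20 named higher genes, 18 were above the other spots in each of the 4 groups and both sections, with Lypd1 and C1ql3 the exceptions. The fit left 3 residual degrees of freedom.

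Nnat was lower in Trh-led members than in the other groups. It was at 485 CPM in the Trh-led members of S4 and 427 in S8, between the other spots (152 and 163) and the other groups. Calb2-led members had 1410 and 1181 CPM, Dcn-led members 839 and 760 and Dlk1-led members 858 and 1264. The log2 fold change of Nnat in Trh-led members against the other groups was -1.13 (SE 0.17, edgeR adjusted p = 4.1e-08). DESeq2 called it too, but without the section block it did not pass, with an adjusted p of 0.15. With equally weighted leading genes its change was -0.93, under the size a call required.

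Of the genes higher in Trh-led members, the rule named Arpp21, a cAMP-regulated phosphoprotein of forebrain neurons, and Syt4, a synaptotagmin of peptide-containing vesicles. Arpp21 had 745 CPM in the Trh-led members of S4 and 488 in S8, against 218 to 317 in the other groups (log2 fold change 1.14, SE 0.17, edgeR adjusted p = 4.1e-08), and was called in all 4 alternatives. Syt4 had 377 and 451 against 153 to 276 (1.07, SE 0.19), and kept its call in 1 of 4 alternatives, the one without a filter on low counts. Of the 18, Ecel1 and Dach1 had the largest changes and are added after their values were seen. Ecel1 had 75.3 and 171 CPM in Trh-led members and 0 to 40.9 in the other groups (3.46, SE 0.58). Dach1, a transcription cofactor gene, had 167 and 85.4 against 3.16 to 26.3 (3.53, SE 0.58). Both were called in all 4 alternatives. Rcn1, also added after its values were seen, had 100 and 159 CPM against 13.2 to 37.2 in the other groups (2.36, SE 0.45). It kept its call in 3 of 4 alternatives, DESeq2 being the exception. In S8 its levels in Dcn-led and Dlk1-led members (16.3 and 13.2 CPM) were not above the other spots (16.95).

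Lower in Trh-led members in all 4 alternatives were Rasgrp1, an activator of Ras, and Vxn, also named after their values were seen. Rasgrp1 had 58.6 and 67.1 CPM in Trh-led members against 194 to 294 in the other groups (-1.95, SE 0.31), and Vxn had 67.0 and 61.0 against 224 to 296 (-1.86, SE 0.31). Other spots stood at 393 and 330 CPM for Rasgrp1, so the remaining groups lay between.

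Calb2-led members were higher in 3 genes (0.0813%) and lower in 2 (0.0542%). Npy, the neuropeptide Y gene, had 300 CPM in the Calb2-led members of S4 and 213 in S8, against 81.8 to 133 in the other groups (log2 fold change 1.24, SE 0.21, edgeR adjusted p = 2.0e-06). Necab1, a neuronal EF-hand gene, had 218 and 153 against 54.9 to 145 (1.04, SE 0.23). Neither was called by DESeq2 or without the section block. The third higher gene, Cnp, encodes a myelin enzyme and had 111 and 213 CPM against 33.5 to 123. The lower genes were the haemoglobin genes Hba-a1 and Hba-a2. Hba-a1 had 120 CPM in S4, against 75.3 to 287 in the other groups, and 484 in S8, against 1198 to 1488. Hba-a2 had 85.4 CPM against 51.1 to 197 in S4, and 413 against 948 to 1349 in S8. Neither was lowest in the Calb2-led members of S4. Each kept its call in 1 of 4 alternatives, without a filter on low counts. Both were higher in S8 than in S4 in every group. Cnp, Hba-a1 and Hba-a2 are named after their values were seen.

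Dcn-led members were higher in 5 genes (0.136%) and lower in 1 (0.0271%). Ptgds, the prostaglandin D synthase made by meningeal and perivascular cells and by oligodendrocytes, had 1413 CPM in the Dcn-led members of S4 and 1251 in S8, against 92.2 to 410 in the other groups (2.59, SE 0.16, edgeR adjusted p = 3.2e-56), and was called in all 4 alternatives. Mgp, Apod, Crim1 and Ldb2 were the other higher genes and Lrrc17 the lower one, named after their values were seen, and DESeq2 called none of these 5. The summed meningeal list was 1849 and 1447 CPM there, against 184 to 512 in the other groups and 551 and 559 in other spots. Ptgds is itself on that list. It supplied most of the sum in Dcn-led members (1413 and 1251 CPM) and in other spots (483 and 492). Dcn-led members had 228 and 229 CPM of Nr2f2 and 170 and 155 of Myh7, above the other spots of both sections (35.8 and 37.6 for Nr2f2, 21.3 and 26.2 for Myh7). The part of meningeal transcripts in these values was not tested. Dlk1-led members had 0 genes higher (0.0%) by edgeR and by DESeq2, with 218 of 3689 genes at an unadjusted p under 0.05, and 1 lower (0.0271%), Ptgds.

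**Figure D4:**
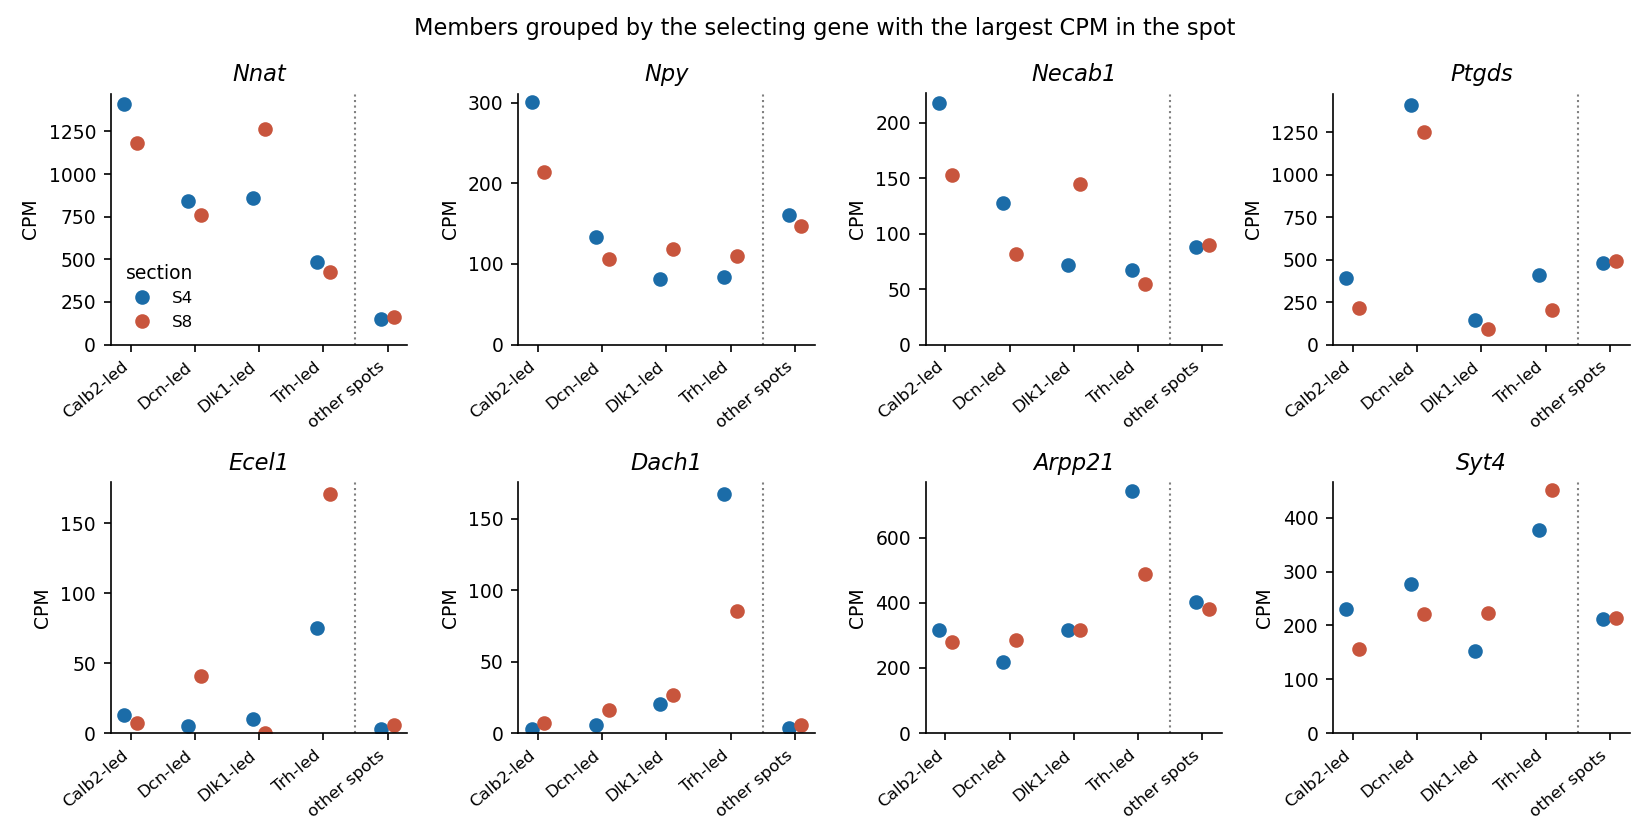
CPM (vertical axes, from 0) of 8 genes in members grouped by their leading selecting gene and in other spots, with S4 in blue and S8 in red. Nnat is lowest among the groups in the Trh-led members (485 and 427 CPM), Ptgds is highest in the Dcn-led members (1413 and 1251) and Dach1 in the Trh-led members (167 and 85.4).

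Dissociated retrosplenial neurons gave a second readout of the same genes, in 765 cells from 3 animals. The assays differ, so levels are not compared between them. Of the 35 selecting and named genes, 30 were matched to names of the cell table, and Dlk1, Calb2, Dcn, Gpr101 and Nr2f2 were not analysed there. Trh was at 1.47 ± 1.01 CPM (SD, n = 3 animals), with a count in 13 of 765 cells. Nnat was at 15.2 ± 6.74 CPM, Myh7 at 18.7 ± 5.06, Cpne7 at 63.6 ± 10.5 and Lypd1 at 246 ± 64.3. Of the genes lower in members, Scn4b was at 28.1 ± 12.5 CPM and Trbc2 at 48.6 ± 11.7.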

How the data were processed

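Visium spots of 2 brain sections were the main data. Counts were deposited as whole numbers for every gene in every spot, without normalization. Space Ranger, Seurat and the builds mm10 and NCBIM37 are named per the submitters' processing notes, without roles or versions. The use of strand and filters on spots are not given in the sources used here, so near-identical or overlapping genes are uncertain. No column lacked a sample (0), and no spot positions or annotation were used here.

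Counts of members and of other spots were summed per section. edgeR 4.0.16 (R 4.3.3) gave the tests by its quasi-likelihood method after filterByExpr and TMM scaling, with the section as a block. A section pairs its own members and other spots. SE is the log2 fold change over the square root of F. The 5 selecting genes stayed in the totals and out of the tests. Members and lists were chosen with earlier results of these data known. Named were the 20 genes called higher and 10 lower with the largest log2 fold change, in that direction in both sections, with at least 100 counts in the higher group. Predicted, ribosomal and mitochondrial genes were skipped. For groups by leading gene, up to 5 higher genes were named by the same rule. Genes of lists were added. Values of some of these genes are not reported here. Tests were checked on simulated data. Alternatives covered normalization, DESeq2 1.42.0, filters, the block, and the choice of members. Of these, 2 were chosen after seeing the data, as was leaving Nnat out of a list's sum. Intervals cover counting error only. Neurons of the cell table are counts deposited per cell, summed per animal.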

Additional observations from a re-analysis of the deposited data

How the results depend on the processing

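Of 196 genes called higher and 223 called lower, DESeq2 called 68 and 50 in all, and with no replicate block (the pairing of members and other spots by section left out) edgeR called 89 and 97. With members chosen after thinning to 2000 counts 60 were higher and 34 lower, and with 200 members per section 63 were lower. Each of the other settings gave 131 to 230 higher and 159 to 252 lower, within 1.5 times. Among the groups by leading gene, DESeq2 called 0 higher and 0 lower in Calb2-led members, 1 and 0 in Dcn-led members and 3 and 3 in Trh-led members. With no replicate block the pairs of counts were 0 and 0, 1 and 0, and 4 and 2, and Dlk1-led members had 0 lower. Without a filter on low counts, Calb2-led members had 5 higher, Dcn-led members 3 higher and Trh-led members 9 lower. With leading genes weighted equally, Calb2-led and Dcn-led members had 0 lower, Dlk1-led members 1 higher, and Trh-led members 8 higher and 7 lower. Where a call was lost, the cause was not tested. Acta2 reversed to -0.26 without members high in meningeal genes, and Mgp ran from -0.10 without S4 to 1.88 without S8. Under each of 20 settings, 17 of 20 named higher genes, 0 of 10 named lower genes and 10 of 51 other list genes were called. Counts of calls without one section were not run, because no residual degree of freedom is left. Depth limits genes with few counts in members.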

Other observations

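Several receptor and channel genes outside the lists and the named genes also differed, and are chosen here after their values were seen. Whether DESeq2 and the other settings kept them is not given here. Of all genes called by edgeR, DESeq2 kept 66 of 196 higher and 50 of 223 lower. Oxtr, the oxytocin receptor gene, had 25.4 CPM in members and 6.51 in other spots of S4, and 22.6 and 6.47 in S8 (log2 fold change 1.85, SE 0.37). Npy2r, a receptor gene for neuropeptide Y, had 29.4 against 6.12 and 18.1 against 4.89 (2.08, SE 0.38), and Adra2a, an adrenergic receptor gene, had 69.5 against 21.9 and 51.2 against 18.2 (1.56, SE 0.22). Esr1, the oestrogen receptor gene alpha, rested on 7 and 9 counts in members (2.21, SE 0.53). Gabra2, a GABA receptor subunit gene, had 96.3 against 49.2 and 190 against 66.9 (1.23, SE 0.14). Lower were the calcium channel subunit gene Cacnb4, with 90.9 against 200 CPM and 64.8 against 172 (-1.28, SE 0.14), and Neurod6, a transcription factor gene of cortical excitatory neurons, with 32.1 against 75.7 and 21.1 against 84.1 (-1.60, SE 0.21).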
